A study of Mus musculus with 8 samples.

Results

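Cluster 3 is a set of corticothalamic-like neuronal nuclei, with the leading genes of the deep-layer cortical neurons that project to the thalamus. Its members are all nuclei with cluster number 3 in the table of nuclei that the authors deposited for each of 8 samples. They number 11583 of 67319 nuclei, or 17.2%, of which 6119 came from wildtype and 5464 from Pantr2 knockout samples. The nuclei were released from flash-frozen dorsal telencephalon, the embryonic tissue that gives rise to the cerebral cortex, of E15.5 mouse embryos, aged in embryonic days. Polyadenylated RNA was counted with a droplet method in which each unique molecular identifier (UMI) stands for 1 captured molecule. The 4 control samples carry the genotype label wildtype and the other 4 the label Pantr2 knockout, with Pantr2-/- as the genotype of those mice in the protocol. Both groups carry the strain label C57BL/6J, the same age and the same tissue. Pantr2 is a long noncoding RNA gene expressed in the developing brain, and the comparison asks what differs in this cell type when it is deleted. The design of the deleted allele and the number of embryos in a sample are not given in the sources used here, so a p-value measures the spread between these samples, which may be partly technical. The counts of Pantr2 were not analysed here, and the genotype rests on the labels.

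Corticothalamic neurons are among the early-born excitatory neurons of the cortex and settle in its deepest layer. At this stage of development they are postmitotic, extend axons through the internal capsule and begin to receive inputs. Tbr1, a T-box transcription factor, is required for their identity, while Tle4, a Groucho-family corepressor, and Foxp2, a forkhead factor, mark them among the deep-layer neurons. Their neighbours that project to the brainstem and spinal cord depend instead on Fezf2 and Bcl11b.

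The samples held between 1116 and 1727 nuclei of cluster 3 and between 3096716 and 5714684 UMIs in them. The median nucleus held between 2926 and 3211 UMIs in the wildtype and between 2542 and 3316 in the knockout samples, and the exact two-sided permutation test over samples gave p = 0.429, adjusted 0.648 over 4 nucleus measures. Mitochondrial transcripts took between 1.72% and 2.44% of UMIs in wildtype and between 2.01% and 2.48% in knockout samples (exact p = 0.486, adjusted 0.648). The smallest p this design allows is 0.0286. Both libraries numbered 1 stood apart in the deposited doublet score, with medians of 0.0705 and 0.0685 against 0.149 to 0.165 in the other 6. Counts of called genes within cluster 3 are therefore also given without that pair where this moved them by over 1.5 times. The comparisons with clusters 2 and 1 were not rerun without it. Of the barcode sequences, 18 occurred in the cluster 3 nuclei of more than 1 library. Cluster numbers were assigned from the same nuclei, and 3 of the 10 leading genes of cluster 3 differed between genotypes. A change in which nuclei were placed in cluster 3 and a change in level per nucleus cannot be told apart, and numbers of nuclei were not compared between genotypes.

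In wildtype samples, cluster 3 was led by enzymes that add 3-O-sulfate to heparan sulfate chains, by a cadherin and by Tle4. Levels here are CPM, the UMIs of a gene scaled so that all genes of the cluster in a sample sum to 1000000, and they describe the clusters without a test, since the clusters were made from these genes. Hs3st4, a heparan sulfate 3-O-sulfotransferase, stood at 3659.8, 4052, 4154 and 4221 CPM in the 4 wildtype samples. Its level in cluster 2, the next highest, was 605 CPM, and in cluster 1 it was 34.4 CPM. Every cluster 3 sample thus lay above every sample of the other clusters for Hs3st4, and the same held for each of the 15 genes with the highest ratio to the next cluster. Hs3st3b1, a related enzyme, had the highest ratio, with 76.1 ± 10.4 CPM (SD, n = 4) in cluster 3 and 4.38 CPM in cluster 2, 17.4 times lower. Another enzyme of this family, Hs3st5, reached the list with 857 ± 42.6 CPM and a ratio of 5.54. Sulf1, which removes 6-O-sulfate from the same chains, was also among the 15, at 87.9, 82.0, 29.4 and 88.6 CPM. Its level in wildtype replicate 3 was far below the other 3.

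Tle4 stood at 3162 ± 203 CPM in cluster 3 and 578 CPM in cluster 2, a ratio of 5.47. Cdh18, a classical cadherin of cell-cell adhesion, stood at 349, 486, 425 and 414 CPM, 8.75 times the level in cluster 2. Htr1f, a Gi-coupled serotonin receptor, stood at 158 ± 21.1 CPM with a ratio of 6.26, and Adcy1, a calmodulin-stimulated adenylyl cyclase, at 254 ± 17.6 CPM with a ratio of 5.04. The other leading genes were Tmem132d, Cobll1, Pdzd2, Npas2, Necab1, Hlf and Susd4, with ratios between 4.45 and 8.69. Drd1, the dopamine receptor, was low at 23.5 ± 4.65 CPM but 8.58 times higher in cluster 3 than in cluster 2, its next cluster. Of 3553 genes with at least 50 CPM in cluster 3, 51 were over 2 times and 28 over 3 times the level of the next cluster.

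**Figure D1:**
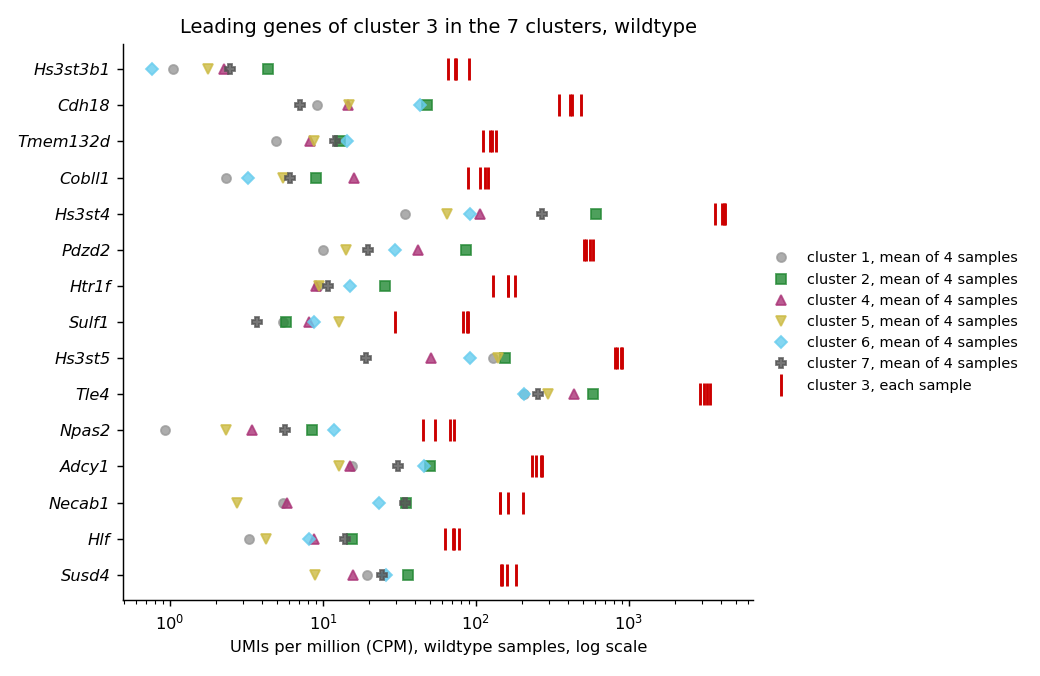
Levels of the 15 leading genes of cluster 3 in wildtype samples in CPM, on a log axis. Red bars are the 4 cluster 3 samples and the other symbols are means over 4 samples of each other cluster; the lowest cluster 3 sample lies above every other cluster for all 15 genes, and Sulf1 has 1 low sample at 29.4 CPM.

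Of a list of 15 corticothalamic markers, 12 were highest in cluster 3. The list includes Tle4, Foxp2, Tbr1, Hs3st4 and Cdh18, the 5 genes that define the cluster here, and was chosen with earlier results known. The count therefore describes the cluster and does not check its label, and no share over all genes is given beside it. Foxp2 stood at 1079 ± 71.7 CPM against 555 CPM in cluster 5, the next highest. Tbr1 stood at 77.5, 89.4, 88.4 and 94.1 CPM against a mean of 56.6 CPM in cluster 5, a ratio of only 1.54. Its lowest cluster 3 sample still lay above the highest sample elsewhere, at 68.0 CPM. Ntsr1, the neurotensin receptor often used to mark these cells in adult cortex, was already highest here at 76.8 ± 16.1 CPM, 2.58 times cluster 2. The 3 markers that peaked elsewhere were Lmo3 and Rprm, which were highest in cluster 6, and Crym, highest in cluster 7. Sox5, a factor of deep-layer neurons, stood at 5004 ± 161 CPM in cluster 3 and 4653 CPM in cluster 2, and at 725 to 1377 CPM in the other 5 clusters. The subcerebral factors Bcl11b, Fezf2 and Ldb2 were higher in cluster 2: Bcl11b stood at 901 ± 30.7 CPM against 960.2 CPM there, Fezf2 at 89.6 ± 7.20 against 136 CPM, and Ldb2 at 535 ± 32.5 against 1509.8 CPM. None of the 10 subcerebral markers was highest in cluster 3, although Cntn6, at 19.8 ± 3.37 CPM, was above its 7.87 CPM in cluster 2 and was highest in cluster 6.

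Single nuclei often carried several of the markers together, but rarely all of them. After every nucleus was thinned to 1400 UMIs, Tle4 was detected in 88.0% to 91.5% and Hs3st4 in 87.4% to 90.8% of cluster 3 nuclei per wildtype sample. Without thinning the share for Tle4 was 94.0% to 96.0%. In cluster 4, the progenitor-like nuclei that should lack Hs3st4, the thinned share was 3.99% to 6.18% for Hs3st4, but 34.2% to 42.6% for Tle4. Foxp2 was detected in 55.2% to 59.4% of cluster 3 nuclei, Cdh18 in 11.9% to 15.2% and Tbr1 in 11.4% ± 1.25 (SD, n = 4). In cluster 4 these shares were 34.5% to 37.0%, 1.30% to 2.29% and 3.32% to 4.89%. At least 3 of these 5 markers were found together in 61.6% to 66.1% of cluster 3 nuclei of the wildtype samples, and all 5 in 0.162% to 0.733%. In cluster 2 that share was 9.49% to 13.0%, and in cluster 4 it was 2.23% to 2.92%. The median nucleus held 3040.0 UMIs in cluster 3, 2820.0 in cluster 2 and 2908 in cluster 4.

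In the knockout samples of cluster 3, the serotonin receptor Htr1f, the cadherin Cdh18 and several glutamate receptor genes were lower, while the cortical transcription factors that passed the test were higher. Tle4, one of the markers of the cluster, did not pass. UMIs were summed per sample and compared with edgeR's quasi-likelihood test, with Benjamini-Hochberg adjustment over all genes and a threshold of 0.05, on CPM scaled by TMM factors. Of 11890 genes tested, 400 passed (3.36%), 176 higher (1.48%) and 224 lower (1.88%) in the knockout. With the replicate number as a block 652 genes passed, 395 of them among the 400. In 376 of the 400 (3.16% of genes tested) the samples of both groups did not overlap, a separation that 8.94% of all genes tested showed with or without a call. Changes over 2-fold were seen in 37 genes that rose and 65 that fell, and 197 called genes changed by less than 1.5-fold. Single libraries weighed on this number: leaving out knockout replicate 3 gave 192 calls, knockout replicate 2 gave 234, wildtype replicate 4 gave 246 and wildtype replicate 1 gave 260. Leaving out the pair numbered 1 gave 231.

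**Figure D2:**
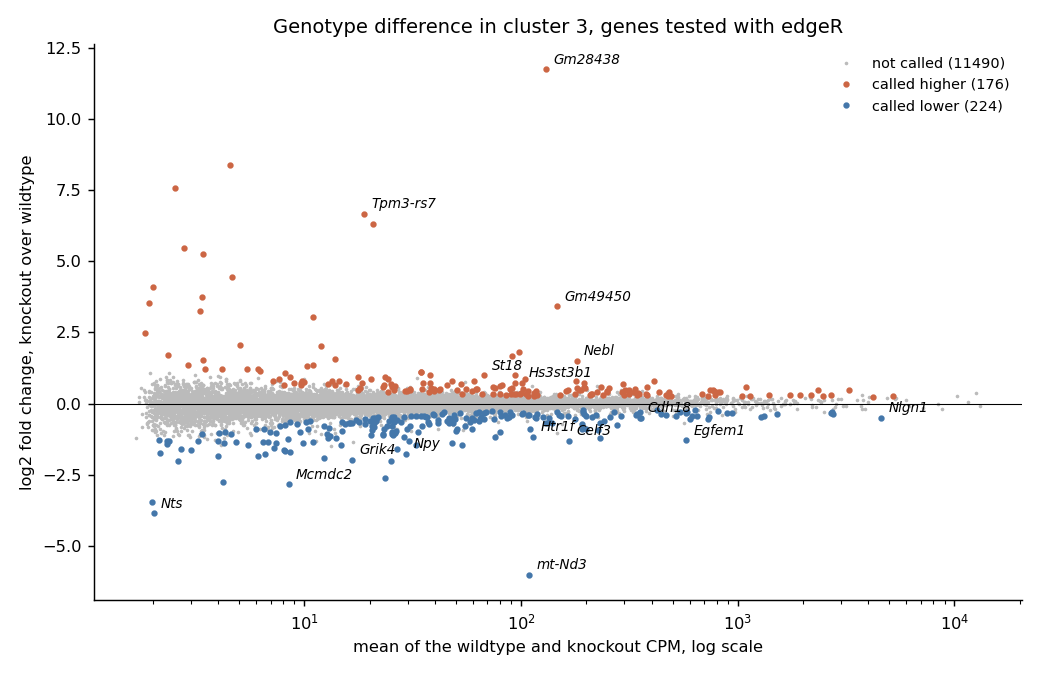
Log2 fold change of knockout over wildtype against mean CPM (log axis) for 11890 genes in cluster 3. Coloured points passed edgeR's test (176 higher, 224 lower), 197 of the 400 changed by less than 1.5-fold, and Gm28438 and mt-Nd3 lie far out at 11.75 and -6.02.

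Among the 5 genes that define the cluster, Tle4 had a log2 fold change of -0.07 ± 0.06 (SE) with an adjusted p of 0.678. Hs3st4 stood at 3599, 4031, 4203 and 4145 CPM in wildtype and 3225, 3597, 3582 and 3690.5 CPM in knockout samples. Its groups overlapped, and its log2 fold change of -0.18 ± 0.06 had an adjusted p of 0.182, or 0.0261 with the replicate block. Foxp2 was 1072 ± 67.7 CPM in wildtype and 872 ± 163 CPM in knockout samples (adjusted p = 0.181; 0.0323 without knockout replicate 2). Cdh18 fell: it stood at 343, 484, 430.3 and 407 CPM in the wildtype and at 314, 321, 240.3 and 298 CPM in the knockout samples. Every knockout sample lay below every wildtype sample, the log2 fold change was -0.50 ± 0.10 and the adjusted p 0.0171. This call was lost without wildtype replicate 2, without knockout replicate 3 and without the 25% of nuclei with the highest doublet scores, with adjusted p-values up to 0.281. Tbr1 rose from 76.3, 89.0, 89.4 and 92.4 CPM to 115, 126, 116 and 93.4 CPM. Knockout replicate 4 lay just above the highest wildtype sample. The log2 fold change of 0.37 ± 0.09 passed narrowly (adjusted p = 0.0427) and was lost in 9 of 16 alternative analyses, with adjusted p-values up to 0.174.

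**Figure D3:**
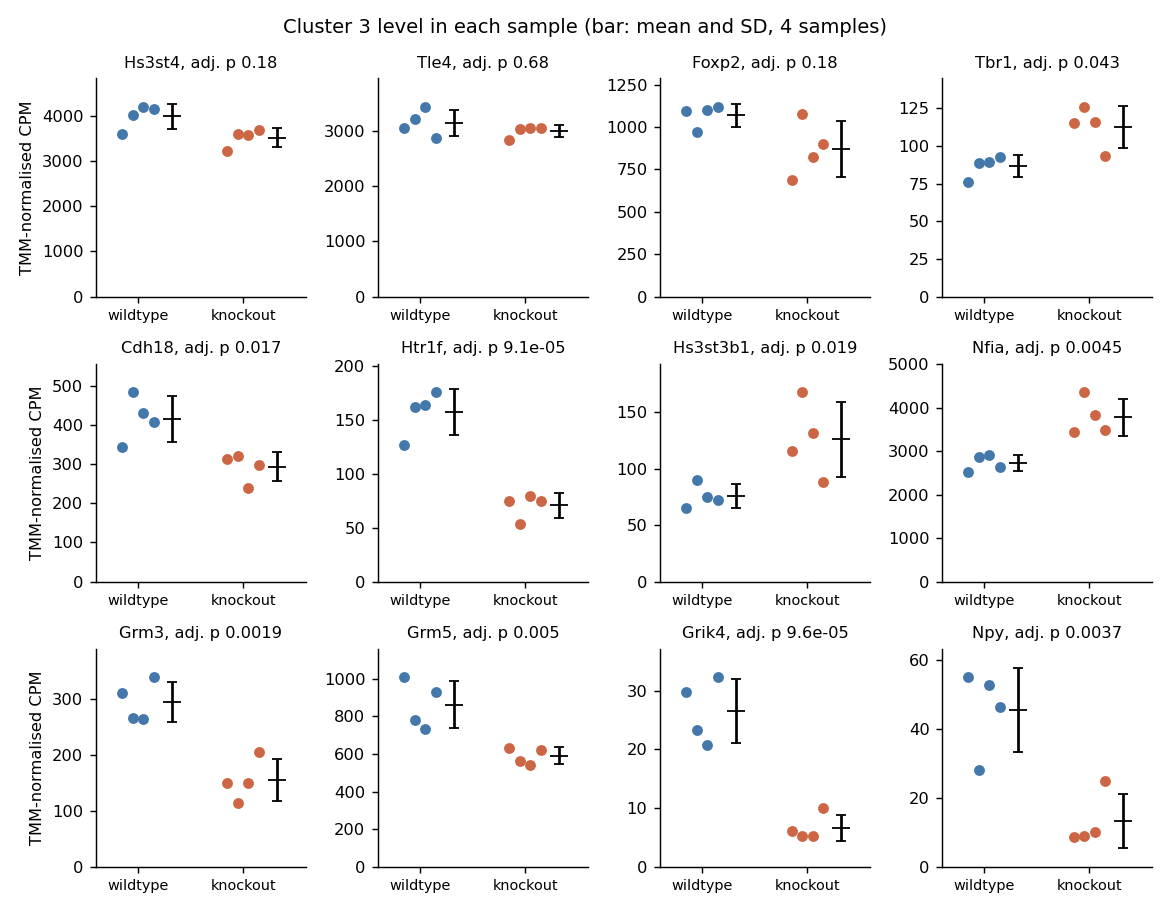
TMM-normalised CPM of 12 genes in cluster 3, 1 point per sample, with mean and SD (n = 4) beside the points and the edgeR adjusted p in each title. Tle4, Hs3st4 and Foxp2 overlap between the groups, Htr1f, Grm3, Grm5, Grik4 and Npy are lower in every knockout sample, and Nfia is higher in every knockout sample.

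Of the 15 corticothalamic markers, Tbr1, Zfpm2 and Lmo3 rose, Cdh18 and Syt6 fell, and 10 did not pass. Of all genes tested 3.36% were called, and of those with a mean of at least 100 CPM 7.73%. Among the 5, only Syt6 was called in all 16 alternatives. Syt6, a synaptotagmin of vesicle traffic, stood at 48.3, 47.9, 49.9 and 57.5 CPM in wildtype and 29.6, 25.9, 38.9 and 33.3 CPM in knockout samples (log2 fold change -0.68 ± 0.12, adjusted p = 0.00508). The groups did not overlap. Ntsr1 was 76.3 ± 16.2 CPM in wildtype and 54.2 ± 9.76 CPM in knockout samples, and did not pass, while 3 alternatives called it, with adjusted p-values of 0.0139 with the replicate block, 0.0354 without wildtype replicate 2 and 0.0336 without knockout replicate 4. Of the 15 leading genes, 6 were called, against the same 3.36% and 7.73%. These 15 were picked for a high wildtype level, so the share describes them and does not test them. Htr1f fell furthest, from 127, 162, 164 and 176 CPM to 75.0, 53.4, 79.6 and 74.8 CPM. All 4 knockout samples were well below the lowest wildtype sample, and the log2 fold change was -1.16 ± 0.12 (adjusted p = 9.14e-05). Npas2, a clock-type transcription factor, fell by 0.56 on the log2 scale (adjusted p = 0.0427). Adcy1 fell by 0.39 (adjusted p = 0.0179) and Necab1, a calcium-binding protein, fell by 0.70 (adjusted p = 0.00338). The calls of Npas2 and Adcy1 were lost in 8 and 4 alternatives, those without wildtype replicate 4 and without knockout replicates 1 and 2 among them for both. Hs3st3b1 went the other way, from 65.0, 90.2, 75.2 and 72.1 CPM to 116, 168, 132 and 88.0 CPM. Knockout replicate 4 fell inside the wildtype range for Hs3st3b1, the log2 fold change was 0.74 ± 0.16 and the adjusted p 0.0190. The call was lost when either wildtype replicate 1 or 4, knockout replicate 2 or 3, or the pair numbered 1 was left out.

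The cortical transcription factors that were called all rose. Of 32 tested, 10 were higher and 0 lower, against 1.48% higher and 1.88% lower among all genes. Among genes with a mean of at least 100 CPM the shares were 4.11% higher and 3.62% lower. The list's median log2 fold change was 0.19 against 0.00 over all genes. This and the other functional lists were chosen with earlier results of these data known. Their shares therefore describe the lists and do not test them. St18, a zinc finger factor related to Myt1l, stood at 38.1, 54.1, 45.3 and 41.7 CPM in wildtype and 116, 102, 78.6 and 65.7 CPM in knockout samples, a doubling (log2 fold change 1.00 ± 0.16, adjusted p = 0.00269). Foxp1, a forkhead factor of cortical projection neurons, stood at 277, 298, 264 and 267 CPM against 387, 398, 446 and 334 CPM (0.50 ± 0.08, adjusted p = 0.00329). Nfia, a nuclear factor I protein that acts in neuronal and glial differentiation, stood at 2515, 2875, 2899 and 2638 CPM against 3429, 4357, 3838 and 3494 CPM (0.47 ± 0.08, adjusted p = 0.00454). For these 3 genes the groups did not overlap, and the call was kept in all 16 alternative analyses. Their rises were not particular to cluster 3. Nfia was also called higher in clusters 1, 2, 4, 5 and 7, Foxp1 in clusters 1, 4 and 5, and St18 in clusters 1, 2 and 5.

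The other factors that rose were Nfib, Zfpm2, Neurod6, Lmo3, Myt1l, Emx1 and Tbr1, with log2 fold changes between 0.25 and 0.46. Zfpm2, a cofactor of GATA proteins that marks corticothalamic neurons, stood at 2244 ± 145 CPM in wildtype and 2701 ± 126 CPM in knockout samples. Neurod6, a bHLH factor of postmitotic excitatory neurons, stood at 330.4 ± 35.4 and 423 ± 28.4 CPM. Fezf2 was 0.28 (adjusted p = 0.0953) and Bcl11b 0.17 (adjusted p = 0.317) on the log2 scale. The list's summed level lay between 27385 and 29191 CPM in wildtype and between 30039.6 and 33029.8 CPM in knockout samples, without overlap. Calls of these 7 were less stable than the first 3, each lost when some single library was left out. Nfib and Neurod6 were also called higher in clusters 1, 2, 4, 5 and 7, Zfpm2 in clusters 1, 2 and 7, and Emx1 in clusters 1, 2 and 4. Tbr1 and Lmo3 were also called higher in cluster 2 alone, and Myt1l in no other cluster. The count of 10 higher factors became 15 with the replicate block, with 0 lower. Leaving out knockout replicate 3 dropped it to 3, wildtype replicate 4 to 4 and wildtype replicate 2 to 5. It dropped to 6 for wildtype replicate 1, knockout replicate 1 or knockout replicate 2, and to 4 for the pair numbered 1. Without knockout replicate 2, 1 factor of the list was called lower.

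Glutamate receptors, through which these neurons receive excitatory input, held the most called genes that fell among the functional lists. Of 20 tested, 7 were lower and 3 higher, against 1.88% and 1.48% of all genes, and the median log2 fold change was -0.25. Among genes with a mean of at least 100 CPM the shares were 3.62% lower and 4.11% higher. Grik4, a high-affinity kainate receptor subunit, stood at 29.7, 23.3, 20.7 and 32.3 CPM in wildtype and 6.12, 5.26, 5.21 and 9.94 CPM in knockout samples. Its highest knockout sample was under the lowest wildtype sample, with a log2 fold change of -1.98 ± 0.21 (adjusted p = 9.62e-05). Grm3, a metabotropic receptor that couples to Gi, stood at 311, 267, 265 and 339.7 CPM against 151, 115, 151 and 206 CPM (-0.93 ± 0.14, adjusted p = 0.00192). In both of these receptors the 4 knockout samples were all below the 4 wildtype samples.

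Grm8, Grid1, Grm5 and Grin1 also fell, with log2 fold changes of -0.91, -0.67, -0.55 and -0.46. Grm5, a Gq-coupled receptor, was the most abundant of them in UMIs, at 862 ± 127 CPM in wildtype and 590.4 ± 45.0 CPM in knockout samples (adjusted p = 0.00505). Grin1, the obligatory NMDA receptor subunit, went from 42.1 ± 3.95 to 30.6 ± 2.68 CPM (adjusted p = 0.0190), a call lost in 6 alternatives, among them those that left out wildtype replicate 1 or 2 or knockout replicate 2 or 4, with adjusted p-values up to 0.235. The 3 receptor genes that rose were AMPA receptor subunits Gria1 and Gria3, by 0.31 and 0.26, and the NMDA receptor subunit Grin2a, by 0.73 on the log2 scale. Grin2a overlapped between the groups, at 34.1, 25.2, 26.2 and 21.2 CPM in wildtype and 41.5, 53.0, 51.6 and 28.3 CPM in knockout samples. The calls of Grin2a and Gria3 were each lost in 6 alternatives, both without wildtype replicates 2 and 4 and knockout replicates 2 and 3. Grin2b, the NMDA subunit typical of immature neurons, had a log2 fold change of -0.02 (adjusted p = 0.937). The number of receptors called lower was 6 or 7 when any single library was left out and 9 with the replicate block. The number called higher dropped from 3 to 1 when wildtype replicate 2 or 4 or knockout replicate 2 or 3 was left out, and also without the pair numbered 1. The summed level of the list was 6461 to 7108 CPM in wildtype and 5951 to 6266 CPM in knockout samples. Of 12 GABA receptor genes tested, 1 fell, against 1.88% of all genes, or 2 with the replicate block. The gene called in the main fit was Gabrb1, from 291 ± 29.9 to 191 ± 37.5 CPM (log2 fold change -0.61 ± 0.12, adjusted p = 0.0142).

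**Figure D4:**
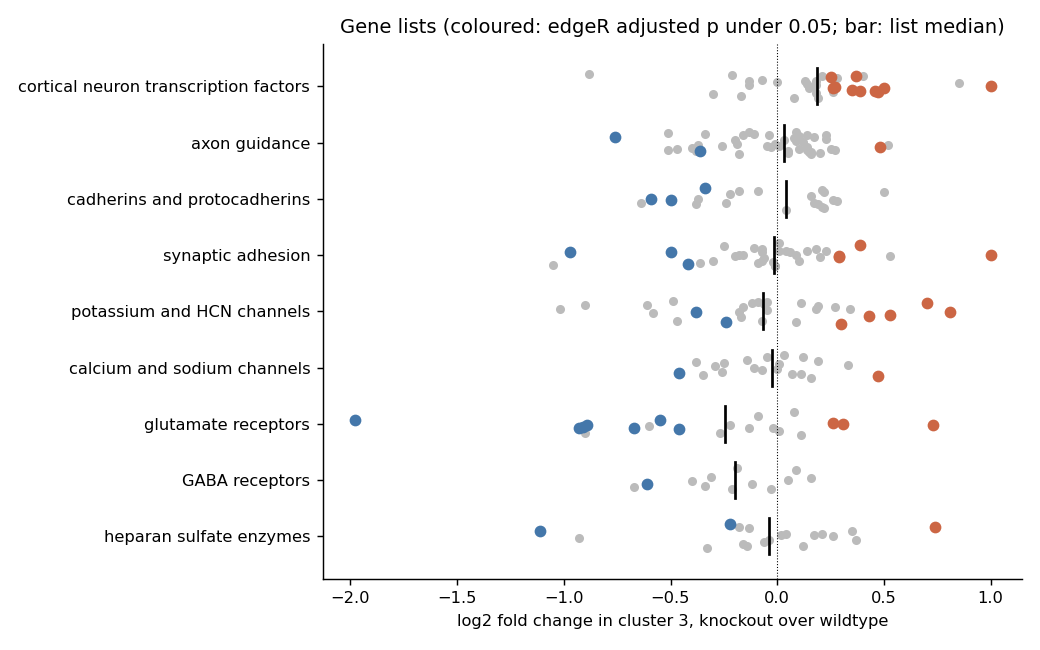
Log2 fold changes in cluster 3 of the members of 9 functional gene lists, 1 point per gene tested, with called genes coloured and the list median as a black bar. Of the transcription factors 10 are called higher and 0 lower, and of the glutamate receptors 3 higher and 7 lower, with Grik4 farthest at -1.98.

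Ion channels changed in both directions. Of 28 potassium and HCN channel genes tested, 5 rose and 2 fell, and of 20 calcium and sodium channel genes 1 rose and 1 fell, against 1.48% higher and 1.88% lower among all genes. Among genes with a mean of at least 100 CPM the shares were 4.11% higher and 3.62% lower. With the replicate block 7 potassium channel genes were higher and 4 lower, and 4 calcium and sodium channel genes were lower. Potassium channel genes called higher numbered 3 when wildtype replicate 4 or knockout replicate 2 or 3 was left out and 2 without the pair numbered 1. Those called lower numbered 1 without wildtype replicate 4, any of knockout replicates 1 to 3 or that pair. No calcium or sodium channel gene was called without wildtype replicate 1, knockout replicate 2 or 3, or the pair, and without wildtype replicate 3 or 4 or knockout replicate 1 Cacna2d3 alone was. Kcnq5, a subunit of the M-current channels, stood at 229.5, 201, 206 and 270.1 CPM in wildtype and 389.5, 394, 315 and 368 CPM in knockout samples (log2 fold change 0.70 ± 0.10, adjusted p = 0.00111). The lowest knockout sample was above the highest wildtype sample. Its partner Kcnq3 rose by 0.30 (adjusted p = 0.0344), and the list's other rises were Kcnt2, Kcnh5 and Kcnn3 by 0.81, 0.53 and 0.43. Kcnd3, an A-type channel subunit, fell by 0.38 (adjusted p = 0.00524) and Kcnk10 fell by 0.24 (adjusted p = 0.0488). Scn2a, the main sodium channel of young axons, went from 146 ± 9.42 to 106 ± 19.6 CPM (-0.46 ± 0.11, adjusted p = 0.0338), and Cacna2d3, an auxiliary calcium channel subunit, from 159 ± 13.5 to 221 ± 33.0 CPM (0.47 ± 0.10, adjusted p = 0.0177). Calls of Kcnh5, Kcnk10, Kcnq3, Scn2a and Cacna2d3 were lost when certain single libraries were left out, knockout replicates 2 and 3 among them in each case.

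Single guidance and adhesion genes were also called, in both directions. Of 45 axon guidance genes tested, 1 rose and 2 fell, against 1.48% and 1.88% of all genes. Among genes with a mean of at least 100 CPM the shares were 4.11% higher and 3.62% lower. The guidance count was near these shares and is not a result about guidance genes as a set. With the replicate block 3 were higher and 6 lower. Those called lower numbered 1 when wildtype replicate 1, 2 or 4 or knockout replicate 3 or 4 was left out and 5 without knockout replicate 1, and those called higher numbered 2 without wildtype replicate 2 or knockout replicate 4 and 0 without the pair numbered 1. Dcc, the netrin receptor, stood at 1840.0, 2153, 1927 and 1895 CPM in wildtype and 3104, 2850.1, 2730.5 and 2189 CPM in knockout samples (log2 fold change 0.48 ± 0.09, adjusted p = 0.0106; 0.0787 without both libraries numbered 1). Efna5, an ephrin ligand, stood at 398, 313, 369 and 312 CPM against 166, 179.5, 231 and 246 CPM (-0.76 ± 0.12, adjusted p = 0.00278). Groups did not overlap for either gene. Epha7, an Eph receptor, fell by 0.36 (adjusted p = 0.0324), a call lost in 8 alternatives, among them those without wildtype replicates 1, 2 and 4 and knockout replicates 3 and 4. Of 21 cadherins and protocadherins 3 fell, Cdh18, Pcdh7 and Pcdh17, and 0 rose, against the same 1.88% and 1.48%. With the replicate block 5 were lower and 2 higher, and without knockout replicate 3 only 1 was lower. Pcdh7 went from 993 ± 21.0 to 783 ± 34.2 CPM (-0.34 ± 0.05, adjusted p = 0.00275), while Pcdh17, at -0.59, lost its call in 7 alternatives, knockout replicates 1, 2 and 3 and wildtype replicates 1, 3 and 4 each left out among them.

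Synaptic adhesion genes gave 4 rises and 3 falls among 34 tested, against 1.48% and 1.88% of all genes, and 4 rises and 6 falls with the replicate block. The rises numbered 2 when wildtype replicate 1, 2 or 4, knockout replicate 3 or the pair numbered 1 was left out, and the falls numbered 1 without knockout replicate 2 or 3. Nlgn1, a postsynaptic neuroligin of excitatory synapses, stood at 5188, 5575, 5472 and 5283 CPM in wildtype and 3489, 4469.8, 3178 and 4029 CPM in knockout samples. No knockout sample reached the wildtype range, and the log2 fold change was -0.50 ± 0.09 (adjusted p = 0.00554). Cntn3, a contactin, stood at 52.6, 65.6, 59.7 and 69.1 CPM against 143, 115, 139 and 101 CPM (1.00 ± 0.11, adjusted p = 1.86e-04). Tenm1 and Tenm4, teneurins that bind latrophilins across synapses, rose by 0.39 and 0.29, and the latrophilin Adgrl3 fell by 0.42 on the log2 scale. The calls of Tenm4 and Adgrl3 were lost when wildtype replicate 1 or knockout replicate 3 was left out, besides other libraries, and that of Tenm1 in no alternative. Of 19 heparan sulfate enzymes tested, 1 rose and 2 fell, against 1.48% and 1.88% of all genes. These counts were 2 and 4 with the replicate block and 0 and 1 without the pair numbered 1. Hs3st3b1 rose while Ext1, a chain polymerase whose call was lost in 8 alternatives (wildtype replicate 1, 2 or 4 or knockout replicate 1, 3 or 4 left out among them), and Sulf2, a 6-O-sulfatase, fell. Sulf2 stood at 38.6, 30.2, 26.6 and 44.1 CPM in wildtype and 21.9, 12.7, 12.9 and 18.2 CPM in knockout samples (-1.11 ± 0.19, adjusted p = 0.00507). Sulf1 was 71.2 ± 27.7 CPM in wildtype and 36.3 ± 19.9 CPM in knockout samples. Its adjusted p was 0.188, with the replicate block or without wildtype replicate 3 or knockout replicate 2 at most 0.0374.

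Neuropeptide genes were low, and 2 of 5 tested fell, against 1.88% of all genes; 1 of them was called without the 25% of nuclei with the highest doublet scores. Npy, neuropeptide Y, stood at 55.1, 28.2, 52.9 and 46.5 CPM in wildtype and 8.69, 8.96, 10.2 and 24.9 CPM in knockout samples. Knockout replicate 4 stood apart from the other 3 but below the lowest wildtype sample, and the log2 fold change was -1.76 ± 0.29 (adjusted p = 0.00368). Npy was detected in 3.13% to 5.74% of thinned wildtype nuclei of cluster 3 and in 1.13% to 3.24% of knockout nuclei, against 0.601% to 1.02% in wildtype nuclei of cluster 4. Nts, neurotensin, the ligand of Ntsr1, gave 77 UMIs in all wildtype samples and 4 in all knockout samples (adjusted p = 0.00269). At 3.76 ± 1.41 CPM in wildtype samples it was near the detection limit.

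Abundant genes outside these lists gave some of the steepest changes. Among genes with a mean of at least 100 CPM, 141 of 1823 were called (7.73%), 75 higher (4.11%) and 66 lower (3.62%). Egfem1, an EGF-domain gene of little-known function, stood at 928, 704, 908 and 733 CPM in wildtype and 302, 307, 270.3 and 468 CPM in knockout samples (log2 fold change -1.28 ± 0.15, adjusted p = 1.97e-04). Celf3, a neuronal splicing regulator, stood at 234, 257, 227 and 232 CPM against 91.1, 102, 97.0 and 91.9 CPM (-1.31 ± 0.07, adjusted p = 3.41e-08). Xpo7, a nuclear transport receptor, stood at 338, 331, 309 and 316 CPM against 139, 143, 135 and 137 CPM (-1.22 ± 0.06, adjusted p = 2.33e-08). Celf3 and Xpo7 had a spread between samples far smaller than the gap between genotypes. Both were also called lower in every other cluster, so these falls were not particular to cluster 3. The log2 fold changes there were -1.49 to -0.79 for Celf3 and -1.38 to -1.07 for Xpo7. In the GENCODE M21 annotation, Xpo7 overlaps Npm2 on the same strand and Dok2 on the opposite strand, and Celf3 overlaps Riiad1 on the opposite strand. UMIs shared between Xpo7 and Npm2 cannot be separated, and sharing with the genes on the opposite strand was not tested. Dpp10, a modulator of A-type potassium channels, fell by 0.90 ± 0.16 (adjusted p = 0.00547). Its transcripts match those of 43 other genes at 95% or more over at least 200 bases. The longest match is Olfr365, at 96.2% over 443 bases.

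Nebl, a nebulin-family actin-binding protein, rose from 78.5, 114, 98.6 and 84.2 CPM to 294, 305, 295 and 177 CPM (log2 fold change 1.51 ± 0.16, adjusted p = 8.75e-05). Its share of thinned nuclei with a UMI was 7.44% to 11.3% in wildtype samples and 21.0% ± 4.40 (SD, n = 4) in knockout samples, against 1.89% to 2.59% in wildtype cluster 4. The groups did not overlap for Nebl. Fat3, an atypical cadherin, rose by 0.58 ± 0.11 (adjusted p = 0.00867), and Cpne4, a calcium-dependent phospholipid-binding protein, by 0.88 ± 0.17 (adjusted p = 0.00969). Qrfpr, a neuropeptide receptor, rose from 8 UMIs in all wildtype samples to 155 in all knockout samples. It was also called higher in every other cluster, with log2 fold changes of 1.07 to 6.26. Sorcs3, a sorting receptor, fell by 1.91 ± 0.26 (adjusted p = 0.00111). Nr3c2, the mineralocorticoid receptor, went from 10.1 ± 3.24 to 3.01 ± 1.86 CPM (adjusted p = 0.0133), a call lost without knockout replicate 2 or 3 and without both libraries numbered 1.

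The largest rise and the largest fall were in a pair of near-identical genes. mt-Nd3, a mitochondrial gene for a subunit of respiratory complex I (MT:9459-9806 in the deposited gene table), stood at 58.8, 230.3, 183 and 386 CPM in wildtype and at 1.61, 4.28, 2.73 and 3.89 CPM in knockout samples. Gm28438, an unprocessed pseudogene on chromosome 1 (chr1:24651856-24652200 in the same table), gave 1 UMI over the wildtype and 4450 over the knockout samples. Per UMI of cluster 3 the ratio was 5264, with a 95% interval of 944 to 207946 (Clopper-Pearson, counting error only). The wildtype spread of mt-Nd3 exceeded 6-fold between samples, and still no knockout sample came near it. Summed over both genes, the level was 215 ± 135 CPM in wildtype and 265 ± 113 CPM in knockout samples, and the exact permutation test gave p = 0.543. The GENCODE M21 transcripts of the pair, on GRCm38, agree at all but 1 of 345 compared bases, the substitution T3C counted from the 5′ end, with mt-Nd3 named before the pseudogene. Their opening 60 bases are shown because this base is all that separates the 2 transcripts there, and the capital marks it.
mt-Nd3: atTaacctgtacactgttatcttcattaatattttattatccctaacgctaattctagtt
Gm28438: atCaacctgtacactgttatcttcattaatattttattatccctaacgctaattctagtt
Values for mt-Nd3 in the 6 other clusters ran from -7.53 to -5.70 on the log2 scale. Of the 12 other protein genes of the mitochondrial genome, 0 were called, 1 (mt-Nd6) had an unadjusted p under 0.05, and their log2 fold changes lay between -0.42 and 0.33. With the replicate block 1 protein gene of the mitochondrial genome was called higher. Among the mitochondrial RNA genes, mt-Ta, a transfer RNA named here after its value was seen, rose by 1.12 (adjusted p = 0.0445).

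Several further large changes sit in genes that share sequence with others or lie side by side. Tpm3-rs7, a gene whose transcript matches Tpm3 at 99.1% over 2108 bases, went from 7 UMIs to 636. Gm49450, whose transcript matches Tuba1a at 98.6% over 899 bases and overlaps Tuba1b, rose from 24.9 ± 1.95 to 268 ± 53.5 CPM (log2 fold change 3.43 ± 0.14, adjusted p = 5.94e-09). It lies on chromosome 15 beside other called genes: Dnajc22 (chr15:98991051-99002618), 4930578M01Rik and Spats2, an RNA-binding protein, rose by 6.31, 1.81 and 0.72 on the log2 scale. Gm17167 fell by 2.60 ± 0.28 (adjusted p = 1.17e-04). Its transcripts match those of 17 other genes at 95% or more over at least 200 bases. The longest match is Gm10600, at 99.5% over 1940 bases. The values of Tpm3-rs7, Gm49450 and Gm17167 cannot be assigned to 1 gene with certainty. Hjurp, a histone chaperone of centromeres, fell from 40.5 ± 3.71 to 9.92 ± 0.206 CPM. Mcmdc2, a meiotic MCM-domain gene that overlaps Snhg6 on the opposite strand, fell from 14.9 ± 0.859 to 2.06 ± 0.578 CPM. Tpm3-rs7, Gm49450, Dnajc22, 4930578M01Rik, Spats2, Gm17167 and Hjurp were called in the same direction in every other cluster. Mcmdc2 was called lower in every other cluster but cluster 6.

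Called genes were unevenly spread over the genome. On chromosome 3, 53 of 582 genes tested were called (9.11%), on chromosome 14 31 of 412 (7.52%) and on chromosome 6 37 of 552 (6.70%), against 1.08% on chromosome 17. Of 260 windows of 10 Mb with at least 10 genes tested, 85 held 0 called genes and 11 held at least 5. The window from 70 to 80 Mb of chromosome 14, which holds Xpo7, had 13 of 48 called (27.1%), and the window from 0 to 10 Mb of chromosome 1, which holds St18 and Mcmdc2, had 6 of 17 (35.3%). The 3 windows from 80 to 110 Mb of chromosome 3 held 31 called genes, among them Celf3, Syt6, Kcnd3 and Nhlh2, and the window from 90 to 100 Mb of chromosome 4 held Nfia and Tek. The 11 windows held 84 of the 400 called genes, and 316 lay outside them. All positions were taken from the authors' gene table. It names no build, and only 2.49% of its gene starts match GENCODE M21. Of 9 genes listed as neighbours of the deleted locus on chromosome 1, only Gm20646 was called, against 3.36% of all genes. It rose from 6.09 ± 1.07 to 15.8 ± 2.73 CPM (log2 fold change 1.35 ± 0.17, adjusted p = 5.71e-04). Clusters 1, 2, 4 and 5 also called it higher, with log2 fold changes of 0.88 to 1.92. Gm20646 overlaps Pantr1, a noncoding RNA gene of the same locus whose level was 83.6 ± 14.7 CPM in wildtype and 85.3 ± 26.2 CPM in knockout samples.

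Markers of other cell types were mostly low in cluster 3, and some moved between genotypes. Microglial markers summed to 5.83 to 7.07 CPM in wildtype and 4.10 to 4.84 CPM in knockout samples, and none of them passed the filter on low counts. Interneuron markers summed to 51.4 to 66.1 CPM in wildtype and 27.1 to 55.2 CPM in knockout samples. Of 8 interneuron genes tested, Dlx5 fell, from 6.85 ± 0.997 to 2.84 ± 1.59 CPM (log2 fold change -1.36 ± 0.29, adjusted p = 0.0179), a call lost without knockout replicate 2 or 3. The other 7 did not pass. Of the 8, 7 were fitted lower and 5 had an unadjusted p under 0.05, which 1825 of all 11890 genes tested also had. The list's median log2 fold change was -0.92 against 0.00 over all genes. Of the 10 interneuron genes measured, 8 were under 10 CPM in cluster 3. Among endothelial markers Tek fell from 10.8 ± 0.867 to 3.66 ± 0.951 CPM (adjusted p = 4.59e-04), while the defining markers Cldn5 and Cdh5 were at 3.13 and 0.196 CPM in wildtype. Of 5 globin genes tested, the embryonic Hbb-y rose from 4.58 ± 2.20 CPM to 17.4, 31.5, 17.4 and 10.8 CPM, and the erythroid sum was 274 to 571 CPM in wildtype and 222 to 490.5 CPM in knockout samples. Rnd2, a gene of migrating neurons, rose from 20.7, 26.8, 25.8 and 26.2 CPM to 56.3, 51.4, 54.3 and 41.3 CPM (1.01 ± 0.11, adjusted p = 1.70e-04), and Nes, an intermediate filament of progenitors, from 13.9 ± 3.47 to 23.2 ± 1.29 CPM (adjusted p = 0.0186), a call lost without wildtype replicate 4 or knockout replicate 2 or 3. Of the 9 apical progenitor markers tested, 1 was called, against 3.36% of all genes, and Pax6 had an adjusted p of 0.876. Of the 10 subcerebral markers 2 fell, against 1.88% of all genes. They were S100a10, from 21.8 ± 5.61 to 7.81 ± 1.08 CPM (log2 fold change -1.47 ± 0.19, adjusted p = 6.05e-04), and Cntn6, from 19.6 ± 3.12 to 10.2 ± 3.44 CPM (-0.97 ± 0.20, adjusted p = 0.0146). The call of Cntn6 was lost without wildtype replicate 4 or knockout replicate 2 or 3. Reln, the secreted protein of Cajal-Retzius cells, rose from 32.6 ± 3.95 to 46.7 ± 4.03 CPM (0.52 ± 0.10, adjusted p = 0.0131), a call lost without knockout replicate 3. S100a10 was also called lower in every other cluster, with log2 fold changes of -2.07 to -1.63. Rnd2 was called higher in every other cluster except cluster 5, and Hbb-y in every other cluster except cluster 6. The part of other cells or of free RNA in the genotype differences was not tested. Cytosolic ribosomal protein genes gave 2 rises, Rpl32 and Rpl39, among 72 tested, against 1.48% of all genes, with a median log2 fold change of 0.15. Those calls were lost in 8 and 7 of 16 alternatives.

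Genotype differences in cluster 3 were then set against those in cluster 2, the deep-layer neighbour with the most Ldb2 and Fezf2, through a test of the difference itself within the same 8 samples. Of 12178 genes tested, 672 differed (5.52%), 356 with a higher (2.92%) and 316 with a lower (2.59%) log2 fold change in cluster 3. Within cluster 2 itself 9.11% of genes were called. Of 398 genes called in cluster 3, 104 (26.1%) differed from cluster 2, and of 1051 genes called in cluster 2, 475 (45.2%) did. Kcnip4, which encodes a potassium channel interacting protein, was 834 ± 192 and 932 ± 201 CPM in wildtype and knockout samples of cluster 3, and 331 ± 169 and 28.8 ± 10.1 CPM in cluster 2. Its log2 fold changes of 0.19 and -3.52 differed by 3.60 ± 0.28 (adjusted p = 1.41e-08). Unc5c, a netrin receptor for repulsion, was 327 ± 31.7 and 311 ± 60.5 CPM in cluster 3, and 142 ± 60.9 and 12.8 ± 3.68 CPM in cluster 2, a difference of 3.34 ± 0.27 (adjusted p = 2.98e-08). Cdh10, Kif26b and Galntl6 showed the same pattern, a steep fall in cluster 2 without a fall in cluster 3, with differences of 2.66, 3.42 and 2.56.

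The reverse held for genes that fell in cluster 3 and not in cluster 2. Syt6 fell from 51.3 ± 4.85 to 31.6 ± 5.47 CPM in cluster 3 and rose from 16.3 ± 4.61 to 34.5 ± 3.99 CPM in cluster 2, and the means of the knockout samples in the 2 clusters lay close together. The difference was -1.79 ± 0.17 (adjusted p = 2.28e-07). Chrm3, a muscarinic acetylcholine receptor, fell by 0.68 in cluster 3 and rose by 1.20 in cluster 2, a difference of -1.92 ± 0.24 (adjusted p = 1.10e-05). Pde7b, a cyclic AMP phosphodiesterase, fell by 1.38 in cluster 3 and was 0.73 (adjusted p = 0.115) in cluster 2, and Trpc7, a receptor-operated channel, fell by 1.34 and was 1.18 (adjusted p = 0.0777). Ngfr, the low-affinity neurotrophin receptor, was 0.08 (adjusted p = 0.910) in cluster 3 and rose by 1.94 in cluster 2. In all, 13 genes were called in both clusters with opposite signs and a difference that passed, 6 of them lower in cluster 3. Kcnq5 and Cntn3 were among the 7 with the reverse sign, with log2 fold changes of 0.70 and 1.00 in cluster 3 and of -0.80 and -0.48 in cluster 2. Cdh18 fell in both, with -0.50 in cluster 3 and -2.52 in cluster 2, a difference of 2.03 ± 0.24 (adjusted p = 4.57e-06). Htr1f and Grik4 fell further in cluster 3, with differences of -0.68 ± 0.15 (adjusted p = 0.00424) and -0.98 ± 0.26 (adjusted p = 0.0275), while Grm3 fell further in cluster 2 (0.90 ± 0.15, adjusted p = 3.70e-04). Nfia and Tbr1 rose more in cluster 2, by differences of -0.69 ± 0.07 (adjusted p = 1.25e-06) and -0.27 ± 0.08 (adjusted p = 0.0363).

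**Figure D5:**
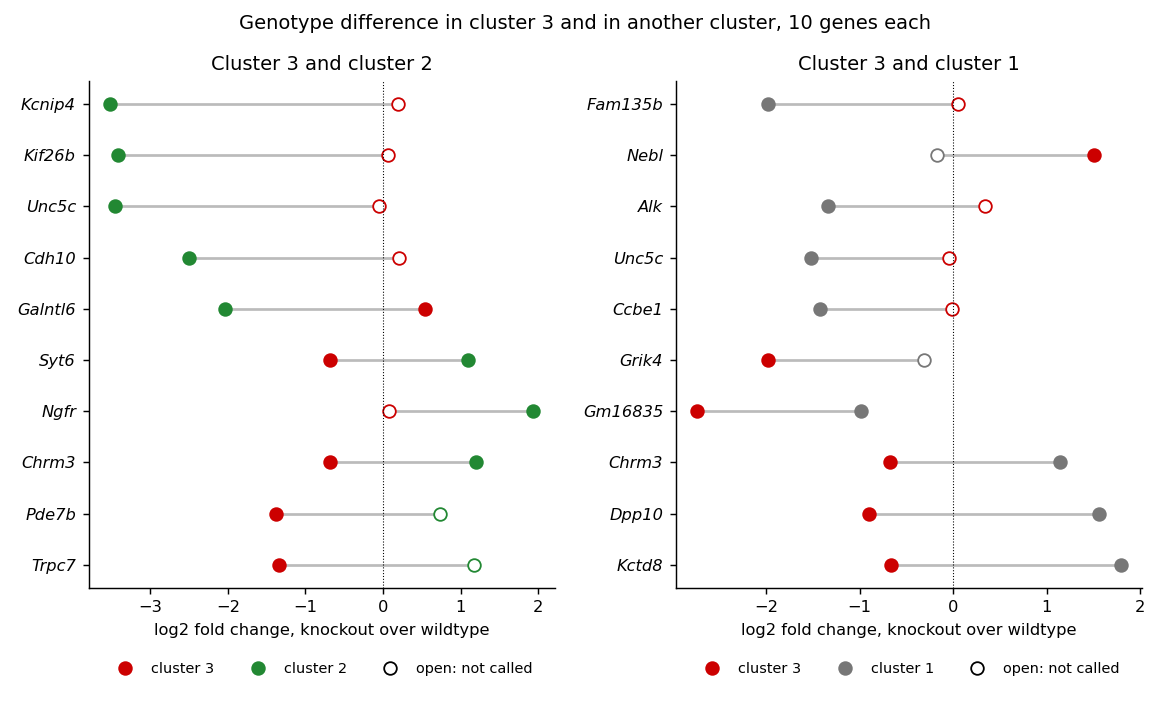
Log2 fold changes of knockout over wildtype in cluster 3 (red) and in cluster 2 (green, left) or cluster 1 (grey, right) for the 10 genes each with the largest difference; open points did not pass within that cluster. Kcnip4 stays at 0.19 in cluster 3 and lies at -3.52 in cluster 2, while Chrm3 is at -0.68 in cluster 3 and above 0 in both others.

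Against cluster 1, the upper-layer-like neurons with the most Cux1 and Cux2, 398 of 12362 genes differed (3.22%), 163 with a higher (1.32%) and 235 with a lower (1.90%) log2 fold change in cluster 3. Leaving out wildtype replicate 4 gave 223 and knockout replicate 2 gave 258. Within cluster 1 itself 4.84% of genes were called. Of the 400 genes called in cluster 3, 94 (23.5%) differed from cluster 1, and of 564 called in cluster 1, 202 (35.8%) did. Nebl rose by 1.51 in cluster 3 and was -0.17 in cluster 1, where it was low at 5.52 ± 1.11 CPM in wildtype samples, a difference of 1.67 ± 0.21 (adjusted p = 2.68e-05). Unc5c and Ccbe1, a secreted factor of lymphatic growth, were -0.05 and -0.01 in cluster 3 and fell in cluster 1, with log2 fold changes of -1.52 and -1.42. Fam135b and Alk, a receptor tyrosine kinase, did likewise, with differences of 1.98 and 1.65. Dpp10 fell in cluster 3 from 252 ± 59.0 to 132 ± 28.3 CPM and rose in cluster 1 from 12.7 ± 2.70 to 34.7 ± 14.0 CPM (difference -2.46 ± 0.27, adjusted p = 5.07e-06). Kctd8, an auxiliary subunit of GABA-B receptors, and Chrm3 also had opposite signs, with differences of -2.50 and -1.89. Grik4 fell by 1.98 in cluster 3 and was -0.31 (adjusted p = 0.603) in cluster 1, a difference of -1.74 ± 0.26 (adjusted p = 2.13e-04), and Gm16835, which overlaps Uggt2 on the opposite strand, fell in both. Pantr1 was 0.01 (adjusted p = 0.990) in cluster 3 and fell by 0.92 in cluster 1, where it was far higher at 923 ± 104 CPM, a difference of 0.90 ± 0.13 (adjusted p = 1.33e-04). Of the genes called in both clusters 3 and 1, 13 had opposite signs and a difference that passed, 10 of them lower in cluster 3.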

How the data were processed

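Members and gene lists were chosen with earlier results of these data known. The authors deposited, per the file headers, whole-number UMI counts per gene and nucleus, not normalised, for 14166 genes. The submitters' processing notes name kallisto, bustools and mm10. The deposited doublet score has no unit, and all deposited nuclei were kept. Clusters were used as deposited. UMIs of cluster 3 were summed per sample and tested with edgeR 4.0.16 (R 4.3.3; TMM, filterByExpr, glmQLFit, glmQLFTest, genotype as the only term). Differences of the genotype effect between clusters came from edgeR with sample, cluster and their interaction. Standard errors come from the F statistic. On simulated counts of 11890 genes, 90.5% of 200 genes changed 2-fold were recovered in cluster 3, 68% and 69% against clusters 2 and 1. Alternatives used DESeq2 1.42.0, limma 3.58.1, RLE factors, no filter, the replicate block, an Xist covariate, fewer nuclei and libraries left out. Copies were searched with blastn 2.17.0 (95% over 200 bases).

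Over all nuclei, the departures from the genotype mean of samples with the same number correlated at 0.376, 0.243, 0.25 and 0.274 across genes. Each was over 0.1, so the fit with the replicate block is given beside list counts and some single genes of cluster 3 that it changes. For the differences between clusters, limma with the block called 731 genes against cluster 2 and 486 against cluster 1. Without the block it called 664 and 344. The main fit and the permutation tests have no block. Some samples with different numbers correlated as highly, wildtype replicate 3 with knockout replicate 4 at 0.259 and wildtype replicate 2 with knockout replicate 3 at 0.245. Others went down to -0.404. Within cluster 3 the same-number values were 0.301, 0.0578, 0.161 and -0.0423, and the 2 different-number pairs named gave 0.193 and 0.106. The numbers are therefore not established as pairs. Named genes were called genes without overlap and with at least 20 UMIs per sample on average, 10 by fold change in each direction, and 8 in each direction at 100 CPM or more. For differences between clusters 5 in each direction were named, for identity the 15 highest ratios at 50 CPM or more, and list genes freely. Depth was 3096716 to 5714684 UMIs per sample, and intervals cover counting error only. Some genes that met these rules are not reported here.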

Additional observations from a re-analysis of the deposited data

Results flagged for a closer look

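In groups of 4 samples, the sample farthest from the rest was compared with the range of its group for 222 gene or measure groups, and 17 stood apart, where chance gives about 5%. The deposited doublet score was 0.0705 in wildtype replicate 1 and 0.0685 in knockout replicate 1, below all others. Knockout replicate 4 was high for Npy (24.9 CPM) and Dpp10 (175 CPM) and low for Nebl (177 CPM), in each case nearer to the wildtype samples than the other 3. Knockout replicate 2 was low for Gabrb1 (136 CPM) and high for Sulf1 (65.8 CPM), and knockout replicate 1 was low for Gm49450 (188 CPM) and Tle4 (2827 CPM) and high for Gm45321 (7.08 CPM). Hlf was high in knockout replicate 3 (68.7 CPM). In wildtype samples, Sulf1 was low in replicate 3 (29.7 CPM), Foxp2 in replicate 2 (971 CPM) and Rnd2 in replicate 1 (20.7 CPM). Gm49450 in replicate 4 (27.8 CPM), Tpm3-rs7 in replicate 3 (0.708 CPM) and Gm28438 in replicate 2 (0.201 CPM) were high at low levels.

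The genotype effect differed between cluster 3 and cluster 2 by an interaction test, with edgeR adjusted p-values given above for most, for Kcnip4 (3.60), Kif26b (3.42), Unc5c (3.34), Cdh10 (2.66), Galntl6 (2.56), Trpc7 (-2.52), Pde7b (-2.15), Chrm3 (-1.92), Ngfr (-1.87) and Syt6 (-1.79), on the log2 scale. Against cluster 1 it differed for Fam135b (1.98), Nebl (1.67), Alk (1.65), Unc5c (1.43), Ccbe1 (1.42), Kctd8 (-2.50), Dpp10 (-2.46), Chrm3 (-1.89), Gm16835 (-1.78) and Grik4 (-1.74). All 20 kept their call in each alternative analysis run.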

How the results depend on the processing

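The count of 400 called genes in cluster 3 became 652 with the replicate block and 231 without both libraries numbered 1, an alternative chosen after seeing the data. Over single libraries left out it ran from 192 to 438. The count against cluster 2 ran from 495 to 676 and that against cluster 1 from 223 to 438. Transcription factors called higher ran from 3 to 9, with 4 without both libraries numbered 1, and glutamate receptors called lower from 6 to 7. The knockout minus wildtype difference ran from -267 to -9.17 for median UMIs, from -98.5 to -11.5 for median genes, from -0.0254 to 0.0194 for the median doublet score, where it changed sign, and from 0.0349 to 0.275 for the mitochondrial percent. Of 33 genes named by rank, 31 kept their call in every alternative, and Gm45321 and Nr3c2 did not; of 60 called list genes 28 kept it and 32 did not. Tmem132d, at 0.04, was -0.03 without the 25% of nuclei with the highest doublet scores, -0.02 without wildtype replicate 1 and -0.07 without knockout replicate 2, where Pdzd2 was -0.04; over single libraries left out they ran up to 0.13 and 0.09. The replicate block ended no call of a named gene; beside those above it called Cobll1, Hlf, Susd4, Sox5 and Thsd7b. The cause of these shifts was not tested. Genes near 2 CPM rest on few UMIs, which limits the precision there.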
